A study of Sus scrofa with 11 samples.

Results

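The genes described here are the core circadian clock genes of pig liver: the period genes PER1 and PER2, the cryptochromes CRY1 and CRY2, CLOCK, the REV-ERB receptors NR1D1 and NR1D2, DBP and CIART. They were taken by symbol from a list of 10 clock genes. Of these, 9 were paired with a row among the 12505 genes of the expression table, and PER3 is not analysed here. All 9 passed the filter for testing (at least 1 FPKM in at least 2 libraries), as did 11644 genes in all. FPKM scales the fragments of a gene by its transcript length and by the mapped fragments of the library, so levels of different genes can be set beside each other per length.

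RNA of pig liver was measured in 11 libraries. The 2 control libraries are labelled day 0 and carry no dose, and the others are labelled day 35 after 20 Gy, 30 Gy or 40 Gy of liver irradiation, with 3 libraries per dose. All libraries carry the genotype WT and the cell type label hepatocyte, and the labels give no age, no strain and no hour of sampling. Day, irradiation and any hour at which a group was sampled therefore cannot be told apart between control and irradiated libraries, whereas the dose groups share their labelled day. No label says whether the libraries of a group came from separate animals, so the p-values speak only to the variation among these libraries, part of which may be technical.

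The clock is a feedback loop of transcription that runs in most cells, the hepatocyte included. CLOCK and its partner BMAL1 (also called ARNTL) switch on the PER and CRY genes through E-box elements, and the PER and CRY proteins return to the nucleus and repress them. A further loop joins this one: BMAL1 and CLOCK switch on NR1D1 and NR1D2, whose proteins repress BMAL1, while the ROR receptors activate it through the same elements. In rodent liver, where the order has been worked out in most detail, NR1D1 and DBP crest first, the PER genes follow, CRY1 comes late, and BMAL1 and NPAS2 crest opposite to NR1D1. Feeding, body temperature and glucocorticoids also set the liver clock, and PER1 and PER2 respond to several of these signals directly.

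Some libraries resembled each other more than their labels would place them. Over 4806 genes, the SD of the log2 ratio between 20Gy-3 and 30Gy-3 was 0.130, and between 30Gy-1 and 30Gy-2 it was 0.137. The other 53 pairs of libraries gave 0.305 to 1.01. The second pair was counted as 1 library in every mean ± SD below, and calls of clock genes that were lost when the second pair was averaged or the first was dropped are given with that value. With both done at once, 30 Gy keeps 1 library. The calls of NR1D1, RORA, DBP, CSNK1E and NONO, and those of PER2 against control, were then lost. So were those of TIMELESS in the mean of the irradiated groups and for 40 Gy against 20 and 30 Gy. The low-dose libraries also fell into sets across the dose labels. Within 20Gy-1, 20Gy-3 and 30Gy-3, and within 20Gy-2, 30Gy-1 and 30Gy-2, the SD was at most 0.352, and between these sets it was at least 0.543. At 40 Gy, library 40Gy-1 stood apart from 40Gy-2 and 40Gy-3, with an SD of 0.858 and 0.889 to them.

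The hepatocyte label was checked against marker genes. All 10 hepatocyte markers were present in every library, and their summed level was 46215 to 76426 FPKM in control, 48973 to 66449 FPKM at 20 and 30 Gy and 30008 to 32732 FPKM at 40 Gy. ALB, the most abundant of them in control, had a mean of 34787 FPKM there and 8326 FPKM at 40 Gy. The means of FGB (11854 against 7087 FPKM), HNF4A (124 against 94.0) and CPS1 (444 against 381) were higher at 40 Gy than in control. These 40 Gy means were raised by 40Gy-2 and 40Gy-3, and the other markers had lower means than in control. Markers of other liver cells were measured as well. The 7 macrophage markers summed to 629 to 811 FPKM in control, 416 to 767 FPKM at 20 and 30 Gy and 755 to 1114 FPKM at 40 Gy. The 6 endothelial markers summed to 280 to 332 FPKM in control and 95.8 to 230 FPKM in the irradiated libraries. Most of the control sums was CLEC4G, at 206 and 263 FPKM in control and 20.5 to 164 FPKM after irradiation. LYVE1 was also below control in every irradiated library, whereas PECAM1, CDH5, KDR and STAB1 overlapped with control. PECAM1 (26.5 FPKM) and CDH5 (19.7 FPKM) were highest in 40Gy-1. The 7 stellate cell markers summed to 38.8 and 51.9 FPKM in control, 108 to 159 FPKM at 20 and 30 Gy, and 349, 35.3 and 30.9 FPKM in 40Gy-1, 40Gy-2 and 40Gy-3. The 4 T and NK cell markers summed to 10.6 to 11.6 FPKM in control, 13.0 to 18.7 FPKM at the lower doses, and 31.9, 10.2 and 7.92 FPKM in the libraries at 40 Gy. The 3 B and plasma cell markers summed to 39.4 to 43.7 FPKM in control, 36.2 to 41.9 FPKM at the lower doses and 64.3 to 91.1 FPKM at 40 Gy. These sums hide opposite changes. JCHAIN was above both controls in every irradiated library, with a mean of 9.26 FPKM in control and 60.8 FPKM at 40 Gy. CD79A was below both controls in every irradiated library, with means of 31.99 and 15.8 FPKM. CD79B was at most 1.10 FPKM. Stellate markers, like PER2 and RORA, were thus above control at the lower doses, and 40Gy-1 had the highest sums of stellate and of T and NK markers. Most of the T and NK sum there was NKG7, at 23.3 FPKM. GZMA was also highest there (3.69 FPKM), but CD3E (1.25 FPKM) was below all low-dose libraries and CD2 (3.65 FPKM) was below 20Gy-1 (5.04 FPKM). The part of these cells in the results for PER2, RORA and 40Gy-1 was not tested. In bulk RNA such as this, fewer cells of a type and less RNA per cell cannot be told apart.

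PER2 and NR1D1 were the 2 members that the tests of dose against control called, and they behaved differently from each other. PER2 rose at 20 Gy and 30 Gy and fell at 40 Gy, to below the level of control. NR1D1 fell at every dose. CLOCK stayed near 4 FPKM in most libraries, and with all libraries no member other than these and DBP passed a test in any of the comparisons. Tests were made with limma on log2(FPKM + 1), and a log2 change on this scale is smaller than the true one where levels are low. A gene was called at a Benjamini-Hochberg adjusted p under 0.05 over all 11644 genes. Leaving out 40Gy-1 raised the share of all genes called in every comparison, at 40 Gy against control from 7.39% to 22.9%. Calls below that were gained without 40Gy-1 stand beside this general gain.

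**Figure D1:**
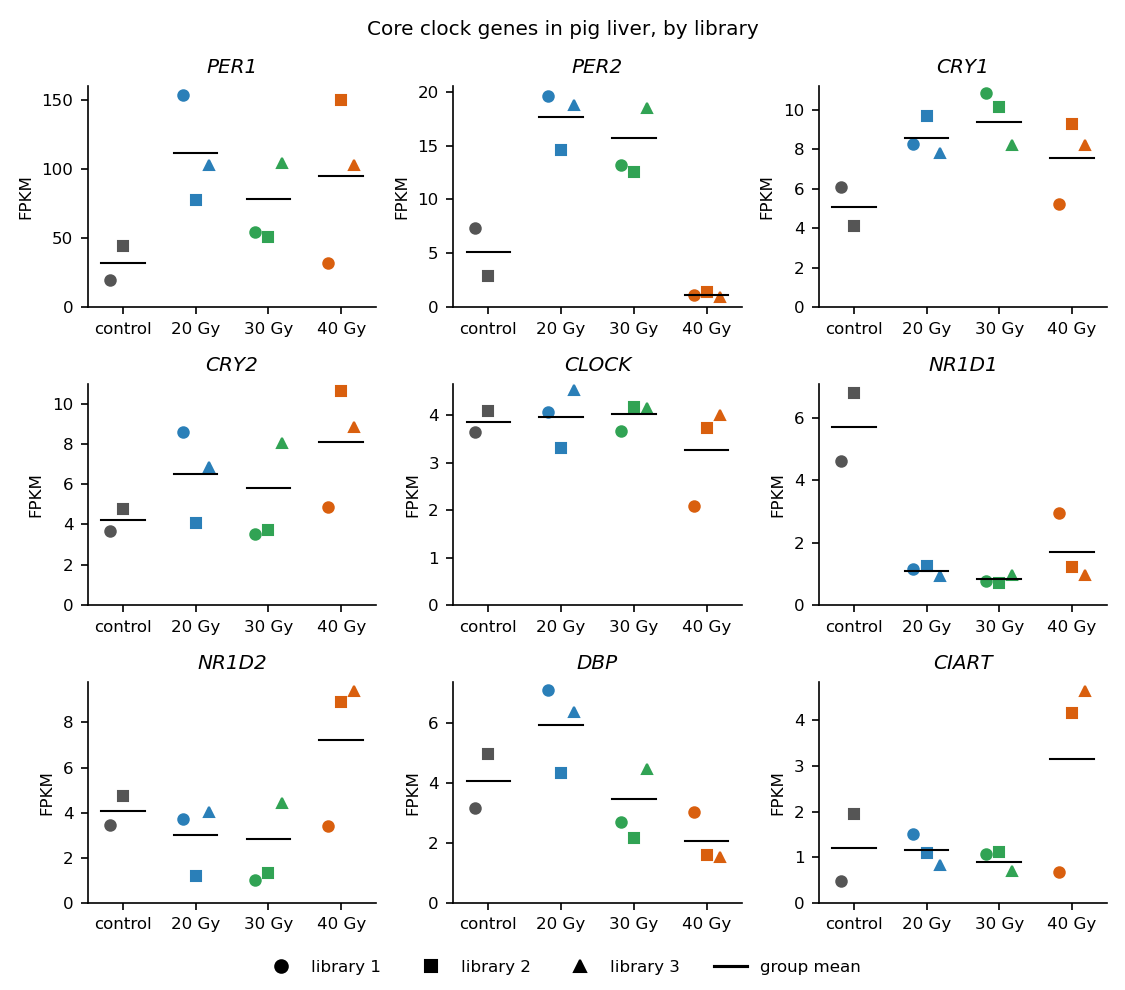
Level of each of the 9 clock genes in FPKM on a linear axis from 0, by group. Each point is 1 library, its shape gives the library number, and lines are group means in which 30Gy-1 and 30Gy-2 count as 1. PER2 lies above control at 20 and 30 Gy and below it at 40 Gy, and NR1D1 lies below control in all 9 irradiated libraries.

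PER2 encodes the period protein whose abundance limits repression in the loop. Its gene lies at chr15:137793419-137837854 of the Sscrofa11.1 build and overlaps no neighbour in the RefSeq gene table. It was at 7.32 and 2.91 FPKM in the control libraries. At 20 Gy it reached 19.6, 14.6 and 18.8 FPKM, and at 30 Gy 13.2, 12.6 and 18.4 FPKM. At 40 Gy it stood at 1.16, 1.40 and 0.962 FPKM. All 6 low-dose libraries were above both controls, all 3 libraries at 40 Gy were below both, and no groups overlapped apart from 20 Gy with 30 Gy.

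The PER2 means were 5.11 ± 3.12 FPKM in control (SD, n = 2), 17.6 ± 2.70 FPKM at 20 Gy (n = 3), 15.7 ± 3.93 FPKM at 30 Gy (n = 2) and 1.17 ± 0.217 FPKM at 40 Gy (n = 3). Against control, PER2 was 1.70 higher on the log2 scale at 20 Gy (SE 0.300, limma adjusted p = 0.0127) and 1.45 higher at 30 Gy (SE 0.300, limma adjusted p = 0.0330). At 40 Gy it was lower, with a log2 change of -1.40 (SE 0.300, limma adjusted p = 0.0222). Because these changes have opposite signs, the mean of the irradiated groups did not differ from control beyond the spread, at a log2 change of 0.58 (SE 0.257, limma adjusted p = 0.240).

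Each call of PER2 against control depended on single libraries, and control-1 and control-2 differ from each other at this gene. At 20 Gy the adjusted p was 0.0918 without control-2, 0.0587 without 20Gy-1 and 0.0560 without 20Gy-3 and 30Gy-3. At 30 Gy it was over 0.05 in 12 of 24 alternatives, among them those without control-2 (0.224), without any 1 of the 3 libraries at 30 Gy (0.0760 to 0.0948), without 20Gy-1 (0.0565) or without 20Gy-3 (0.0562). At this dose it was 0.147 when the pair 20Gy-3 with 30Gy-3 was dropped and 0.0833 when 30Gy-1 and 30Gy-2 were averaged. For 40 Gy it was 0.155 without control-1, 0.0568 without 40Gy-2 and 0.0605 without 40Gy-3. With only the control and 40 Gy libraries fitted, the limma adjusted p of PER2 at 40 Gy was 0.161. Calls over all genes then fell from 861 to 31. Across these alternatives the sign did not change.

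The contrast between the dose groups does not use the control means. PER2 at 40 Gy was lower than the mean of 20 and 30 Gy by a log2 change of -2.97 (SE 0.232, limma adjusted p = 8.89e-05). The highest low-dose library was 1.56 times the lowest, while the 40 Gy libraries were all at or below 1.40 FPKM. It was called in all 24 alternatives, with an adjusted p between 4.99e-05 and 0.0125 and a log2 change between -3.67 and -2.86. The highest p came when 30Gy-1 and 30Gy-2 were averaged and the pair 20Gy-3 with 30Gy-3 was dropped, and the log2 change was then -2.86. The same libraries at 40 Gy had the lower hepatocyte marker sums given above, though the means of FGB, HNF4A and CPS1 were higher there than in every other group. Their neutrophil marker sums were 7.71 to 17.9 FPKM against 0.341 to 1.01 FPKM at 20 and 30 Gy, where 2 of the 3 neutrophil markers in the table were listed at 0 in some library. The part of cell composition in the PER2 difference was not tested.

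**Figure D2:**
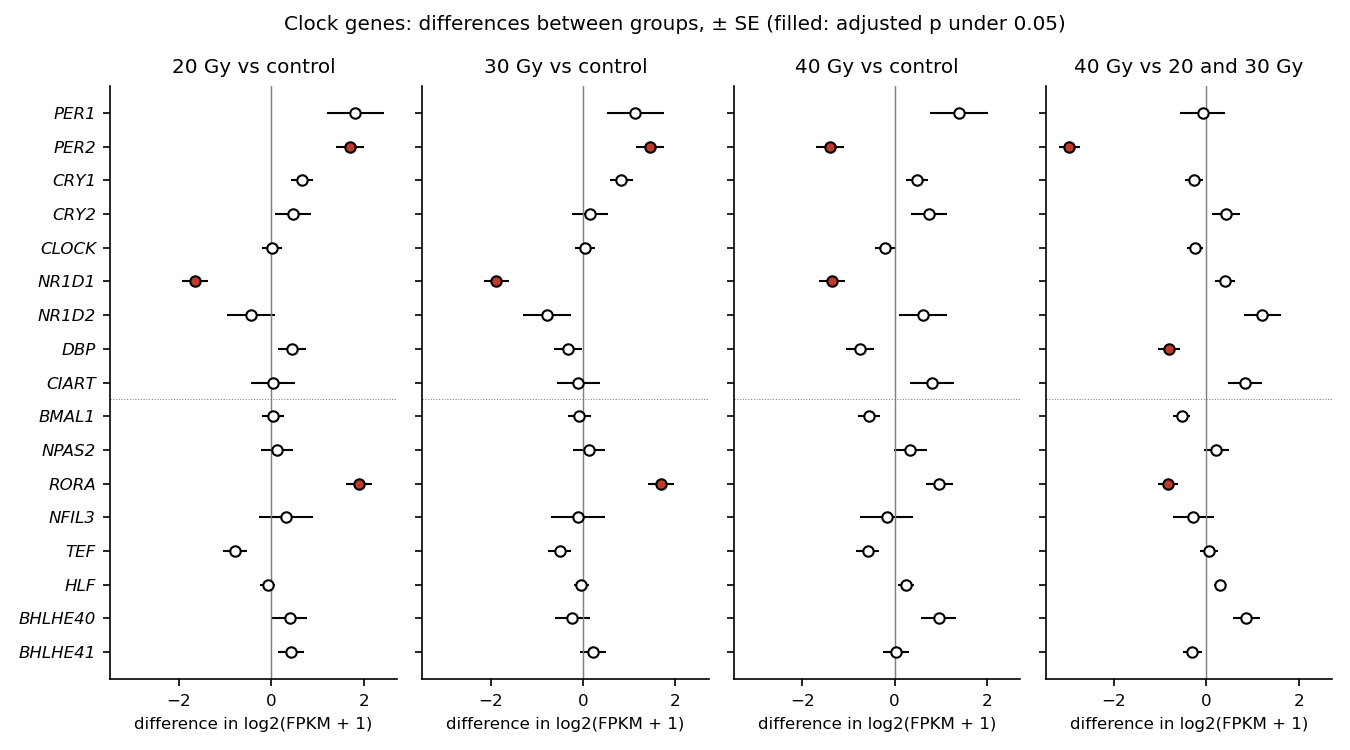
Difference in log2(FPKM + 1) with its standard error for the 9 clock genes, above the dotted line, and 8 partners below it, in 4 comparisons. Filled points passed an adjusted p under 0.05. PER2 is at 1.70 and 1.45 for 20 and 30 Gy and at -1.40 for 40 Gy, whereas NR1D1 is below 0 at each dose against control.

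PER1, the period gene that answers fastest to hormonal and feeding signals, did not follow PER2 at 40 Gy. It lies at chr12:53361863-53376723. It was at 19.5 and 44.6 FPKM in control, at 153, 77.4 and 103 FPKM at 20 Gy, at 54.2, 50.9 and 104 FPKM at 30 Gy, and at 31.9, 150 and 103 FPKM at 40 Gy. It was the most abundant of the 9 members in every library. The low-dose libraries all lay above both controls, as they did for PER2, and 40Gy-1 lay between the controls.

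The log2 change of PER1 was 1.82 at 20 Gy (SE 0.619, limma adjusted p = 0.125), 1.13 at 30 Gy (limma adjusted p = 0.409) and 1.39 at 40 Gy (limma adjusted p = 0.197). None passed. Without 40Gy-1 the adjusted p was 0.0263 at 20 Gy, 0.0159 at 40 Gy and 0.0229 for the mean of the irradiated groups, whereas at 30 Gy none of 24 alternatives passed (lowest adjusted p 0.147). Between 40 Gy and the mean of the lower doses PER1 differed by a log2 change of -0.08 (limma adjusted p = 0.914), in the same contrast in which PER2 fell by 2.97 on the log2 scale. The PER1 to PER2 ratio within a library was 2.66 and 15.3 in control, 4.05 to 7.81 at 20 and 30 Gy, and 27.5, 107 and 107 at 40 Gy.

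The cryptochromes, partners of the PER proteins in repression, were not called in any comparison with all libraries. CRY1, at chr5:13275265-13429566, was at 6.08 and 4.10 FPKM in control. It was at 8.24, 9.69 and 7.83 FPKM at 20 Gy, at 10.9, 10.2 and 8.22 FPKM at 30 Gy, and at 5.24, 9.27 and 8.22 FPKM at 40 Gy. All 6 low-dose libraries exceeded both controls by a narrow margin, and 40Gy-1 fell between the controls. The log2 changes were 0.67 at 20 Gy (limma adjusted p = 0.145), 0.83 at 30 Gy (limma adjusted p = 0.112) and 0.48 at 40 Gy (limma adjusted p = 0.254). Without 40Gy-1 these became 0.0443, 0.0243 and 0.0375 as adjusted p. The CRY1 gene overlaps MTERF2 and TMEM263 in the gene table, and the strandedness of the counts is not stated, so its reads and theirs may be mixed.

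CRY2, at chr2:16587101-16620380, was at 3.69 and 4.78 FPKM in control, at 8.61, 4.09 and 6.86 FPKM at 20 Gy, at 3.53, 3.73 and 8.03 FPKM at 30 Gy, and at 4.84, 10.6 and 8.82 FPKM at 40 Gy. The groups overlapped except that all 3 libraries at 40 Gy were above control. The largest log2 change against control was 0.75, at 40 Gy (limma adjusted p = 0.268). CRY2 was one of the genes that split the low-dose libraries across their labels: 30Gy-3 was near 20Gy-1 and 20Gy-3, not near the other libraries at 30 Gy.

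CLOCK, the activator at chr8:54793323-54910192, was the steadiest member. The level of CLOCK was 3.64 and 4.10 FPKM in control, 3.31 to 4.54 FPKM at 20 and 30 Gy, and 2.09, 3.72 and 4.01 FPKM at 40 Gy. Only 40Gy-1 left the range of the other libraries. The log2 change of the irradiated mean against control was -0.05 (SE 0.187, limma adjusted p = 0.906). TMEM165 overlaps CLOCK in the gene table, and it rose by 1.07 on the log2 scale at 40 Gy (limma adjusted p = 0.0364; 0.167 without control-1 and 0.143 without control-2), while CLOCK had a log2 change of -0.22 there.

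The partner of CLOCK, BMAL1, belongs to the wider clock list and lies at chr2:45895637-46025174. It was at 9.70 and 10.003 FPKM in control and at 8.48 to 10.7 FPKM in the 6 low-dose libraries, within which it varied 1.27-fold. At 40 Gy it was at 3.98, 8.01 and 7.91 FPKM, below every other library. The difference between 40 Gy and the lower doses was a log2 change of -0.54 (SE 0.190, limma adjusted p = 0.0676). This did not pass, but it did when libraries were rescaled to equal totals (0.0214), by median ratio (0.0344) or by quantiles (0.0431). NPAS2, which can stand in for CLOCK, ranged from 1.45 to 4.15 FPKM with overlap between all groups, and its irradiated mean differed from control by a log2 change of 0.20 (limma adjusted p = 0.756).

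NR1D1 encodes REV-ERB alpha, the repressor of BMAL1. It lies at chr12:22263549-22274131. It was at 4.61 and 6.77 FPKM in control, at 1.14, 1.25 and 0.920 FPKM at 20 Gy, at 0.775, 0.697 and 0.949 FPKM at 30 Gy, and at 2.93, 1.21 and 0.955 FPKM at 40 Gy. All 9 irradiated libraries were below both controls, and 40Gy-1 was the highest of them. The means were 5.69 ± 1.53 FPKM in control (SD, n = 2), 1.10 ± 0.169 FPKM at 20 Gy (n = 3), 0.843 ± 0.151 FPKM at 30 Gy (n = 2) and 1.70 ± 1.08 FPKM at 40 Gy (n = 3).

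NR1D1 fell by 1.63 on the log2 scale in the mean of the irradiated groups (SE 0.239, limma adjusted p = 0.00480). It was the only 1 of the 9 members called there, in a comparison that called 4.71% of all genes tested, 1.86% higher and 2.84% lower. By dose, it fell by 1.65 at 20 Gy (SE 0.279, limma adjusted p = 0.00998), by 1.87 at 30 Gy (SE 0.279, limma adjusted p = 0.00649) and by 1.36 at 40 Gy (SE 0.279, limma adjusted p = 0.0182). The doses did not differ among themselves beyond the spread, with 40 Gy minus the lower doses at 0.40 (SE 0.216, limma adjusted p = 0.201). The change kept its sign in every alternative in which NR1D1 was tested, and a minimum of 5 FPKM removed it from the test.

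With 2 controls, the NR1D1 call depended on control-2, the library with the higher level. Without control-2 the adjusted p was 0.0919 for the irradiated mean, 0.103 at 20 Gy, 0.0837 at 30 Gy and 0.132 at 40 Gy. The 40 Gy value was also 0.0567 without control-1 and 0.0677 without 40Gy-2. Dropping the pair 20Gy-3 with 30Gy-3 gave 0.0622 at 20 Gy and 0.0443 at 30 Gy. Rescaling to equal totals gave 0.0620 for the irradiated mean. With only the control and 40 Gy libraries fitted, the limma adjusted p at 40 Gy was 0.185.

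NR1D1 shares 3626 of its 10583 bases with THRA, a thyroid hormone receptor gene, in the RefSeq gene table. THRA also fell in the irradiated mean, by 0.92 on the log2 scale (SE 0.220, limma adjusted p = 0.0429), a call lost without control-1 (0.264) or control-2 (0.220). It was at 25.7 and 24.0 FPKM in control, 11.6 to 17.7 FPKM at 20 Gy, 10.5 to 12.5 FPKM at 30 Gy and 8.65 to 16.4 FPKM at 40 Gy. Since the strand of the counts is not given, reads from the shared stretch cannot be told apart, and both rows moved in the same direction. THRA was added to the genes examined after the values had been seen.

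NR1D2, which encodes REV-ERB beta and acts with NR1D1 in liver, did not follow it. It lies at chr13:10756954-10791219 and was at 3.44 and 4.72 FPKM in control. It was at 3.73, 1.19 and 4.03 FPKM at 20 Gy, at 1.03, 1.31 and 4.45 FPKM at 30 Gy, and at 3.40, 8.93 and 9.39 FPKM at 40 Gy. The low-dose libraries covered a 4.31-fold range that cut across the dose labels, and 40Gy-2 and 40Gy-3 were the highest of all libraries. No change against control passed, with log2 changes of -0.43 at 20 Gy, -0.78 at 30 Gy (limma adjusted p = 0.513) and 0.61 at 40 Gy (limma adjusted p = 0.508).

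Between 40 Gy and the lower doses NR1D2 differed by a log2 change of 1.21 (SE 0.404, limma adjusted p = 0.0565), which did not pass. The adjusted p was 0.0126 without 40Gy-1, 0.0263 without 30Gy-3 and 0.0374 when the pair 20Gy-3 with 30Gy-3 was dropped. The NR1D1 to NR1D2 ratio within a library was 1.34 and 1.44 in control. It was below both controls in all 9 irradiated libraries, at 0.305, 1.05 and 0.228 at 20 Gy, 0.751, 0.534 and 0.213 at 30 Gy, and 0.861, 0.135 and 0.102 at 40 Gy. Library 20Gy-2 was thus nearest to the controls and 40Gy-3 farthest from them.

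The ROR receptors bind the same elements as the REV-ERB receptors and activate through them. RORA was at 1.24 and 0.842 FPKM in control, at 7.28, 5.36 and 7.27 FPKM at 20 Gy, at 4.64, 5.22 and 6.96 FPKM at 30 Gy, and at 1.66, 3.98 and 3.74 FPKM at 40 Gy. All irradiated libraries were above both controls, and all libraries at 40 Gy were below those at the lower doses. RORA rose by a log2 change of 1.52 in the irradiated mean (SE 0.242, limma adjusted p = 0.00712), by 1.90 at 20 Gy (SE 0.282, limma adjusted p = 0.00499) and by 1.69 at 30 Gy (limma adjusted p = 0.0116). At 40 Gy the change was 0.97 (limma adjusted p = 0.0664). Its 40 Gy level was lower than that of the lower doses by a log2 change of -0.82 (SE 0.219, limma adjusted p = 0.0254).

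The RORA rise in the irradiated mean also depended on the controls, with an adjusted p of 0.0541 without control-1 and 0.115 without control-2. At 20 Gy it was 0.0612 and at 30 Gy 0.119 without control-2. The dose difference had an adjusted p of 0.0568 without 20Gy-1 and 0.0545 without 20Gy-3. Dropping the pair 20Gy-3 with 30Gy-3 gave 0.0726 at 30 Gy and 0.0955 for the dose difference. At 40 Gy the rise passed without 40Gy-1, at 0.00341.

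DBP is an output transcription factor that binds D-box elements and is driven directly by CLOCK and BMAL1. It lies at chr6:53986955-53993044. It was at 3.16 and 4.98 FPKM in control, at 7.10, 4.33 and 6.36 FPKM at 20 Gy, at 2.71, 2.15 and 4.47 FPKM at 30 Gy, and at 3.04, 1.59 and 1.52 FPKM at 40 Gy. The 20 and 30 Gy libraries overlapped with control, and the 40 Gy libraries lay below both controls. The log2 change was 0.45 at 20 Gy, -0.32 at 30 Gy and -0.75 at 40 Gy (limma adjusted p = 0.168), and none passed. At 40 Gy the adjusted p was 0.0437 without 40Gy-1.

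DBP was lower at 40 Gy than at the lower doses by a log2 change of -0.81 (SE 0.239, limma adjusted p = 0.0372). With PER2 it made 2 of 9 members called in that comparison, both lower, where 11.8% of all genes tested were called higher and 9.71% lower (21.5% in all). The DBP call was lost in 9 of 24 alternatives. The adjusted p was 0.0792 without 20Gy-1, 0.0738 without 20Gy-3, 0.0594 without 30Gy-1, 0.0626 without 30Gy-3, 0.154 without 40Gy-2 and 0.140 without 40Gy-3. It was 0.115 when the pair 20Gy-3 with 30Gy-3 was dropped, and library 30Gy-2 at 2.15 FPKM lay below 40Gy-1 at 3.04 FPKM.

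None of the other D-box factors passed with all libraries. TEF, an activator of the same family, was at 11.8 and 14.4 FPKM in control and at 5.32 to 10.7 FPKM in the irradiated libraries, all below control, with a log2 change of -0.62 in the irradiated mean (limma adjusted p = 0.138) and -0.59 at 40 Gy (limma adjusted p = 0.181). Without 40Gy-1 TEF was called lower in the irradiated mean (0.0242) and at 20 Gy (0.00802). HLF, the third activator, stayed between 5.76 and 8.97 FPKM. NFIL3, the repressor at D-boxes, was at 48.2 and 42.5 FPKM in control and ranged from 25.3 to 86.3 FPKM in the irradiated libraries. The log2 changes of HLF and NFIL3 in the irradiated mean were 0.04 (limma adjusted p = 0.906) and 0.01 (limma adjusted p = 0.991).

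CIART encodes a repressor of CLOCK and BMAL1 and is also known as CHRONO. It lies at chr4:98800849-98809573 and overlaps 1 neighbour, C4H1orf54. It was the lowest member in 6 of 11 libraries. Its level was 0.478 and 1.94 FPKM in control, 1.52, 1.10 and 0.839 FPKM at 20 Gy, 1.08, 1.11 and 0.690 FPKM at 30 Gy, and 0.676, 4.17 and 4.64 FPKM at 40 Gy. Libraries 40Gy-2 and 40Gy-3 were above all others, and 40Gy-1 was among the lowest. The log2 change at 40 Gy was 0.81 (limma adjusted p = 0.324) and that against the lower doses was 0.84 (limma adjusted p = 0.126). Without 40Gy-1 these had an adjusted p of 0.0109 and 0.00195.

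Counted together, the members called were PER2 higher and NR1D1 lower at 20 Gy, where 2.03% of all genes tested were called higher and 2.20% lower (4.23% in all). The same genes in the same directions were called at 30 Gy, where 1.32% of all genes were called higher and 1.71% lower (3.03% in all). At 40 Gy PER2 and NR1D1 were both called lower, where 2.99% of all genes were called higher and 4.41% lower (7.39% in all). In the test of any difference among the 4 groups, PER2 (limma adjusted p = 4.49e-04) and NR1D1 (limma adjusted p = 0.00821) passed and DBP did not (limma adjusted p = 0.0593), with 13.8% of all genes called. The median log2 change of the 9 members was 0.45 at 20 Gy, 0.04 at 30 Gy and 0.48 at 40 Gy, beside -0.03, -0.02 and 0.06 over all genes tested. These dose comparisons share the 2 control libraries.

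**Figure D3:**
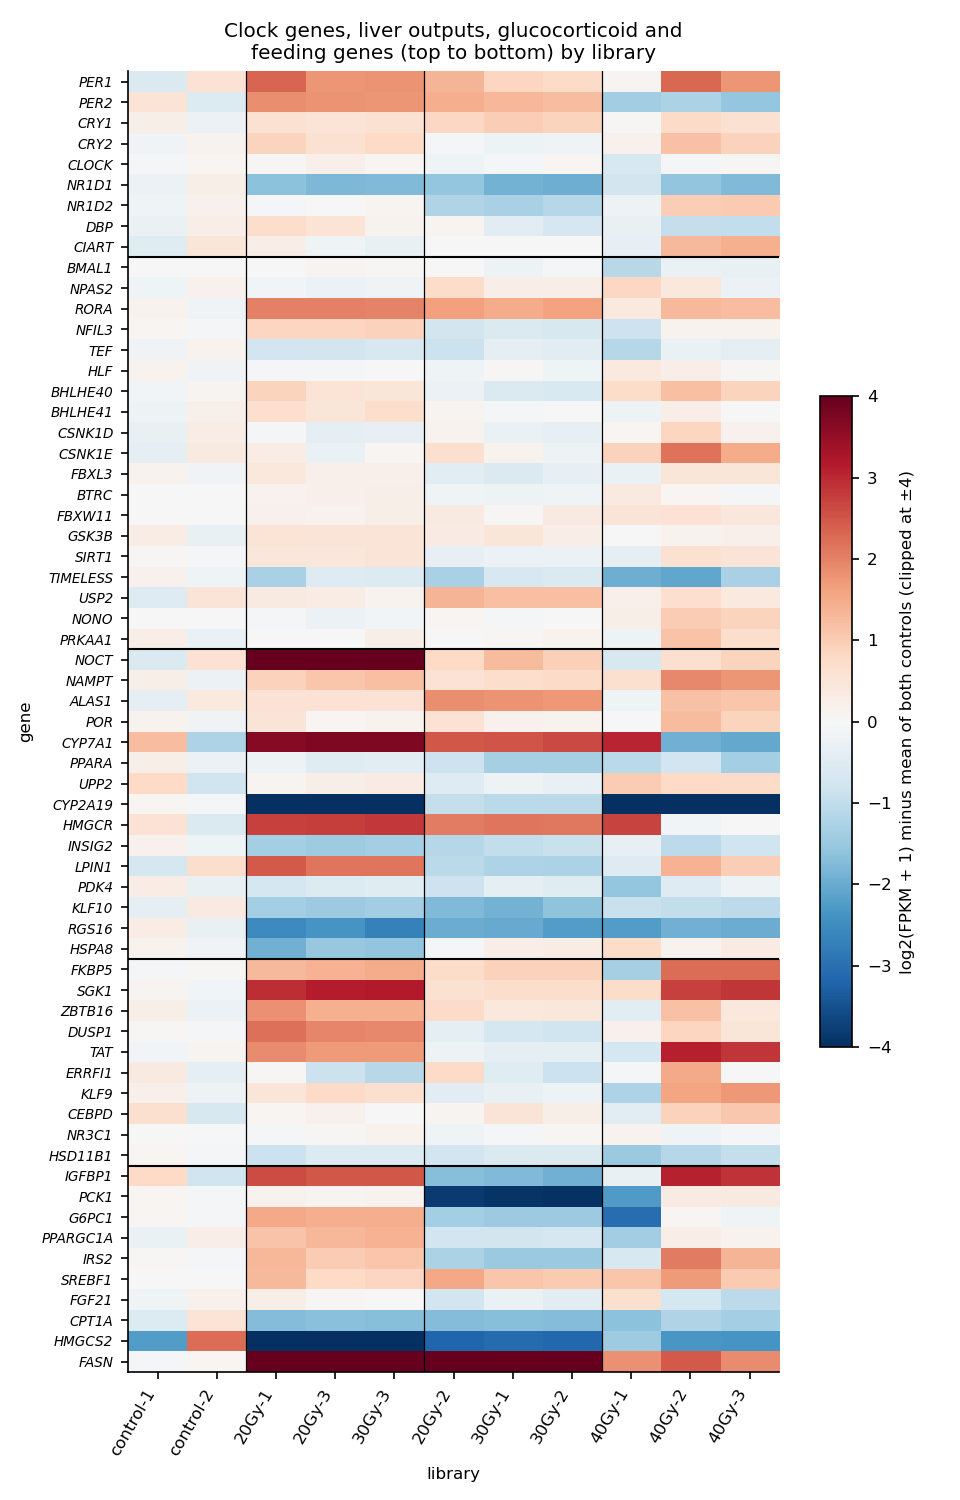
Difference in log2(FPKM + 1) from the mean of both controls, for tested genes of the clock, output, glucocorticoid and feeding lists (rows) in each library (columns), with colours clipped at 4 in either direction. Columns are ordered so that 20Gy-1, 20Gy-3 and 30Gy-3 stand together. PER2 turns from above control at 20 and 30 Gy to below it at 40 Gy, and NR1D1 is below control in every irradiated library.

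Relations between the members within a library do not depend on its total. The NR1D1 to BMAL1 ratio, of a gene and the one it represses, was 0.476 and 0.677 in control and 0.0760 to 0.125 at 20 and 30 Gy. The 40 Gy libraries had 0.736, 0.151 and 0.121. The controls and 40Gy-1 were high and the 8 other libraries low. The PER2 to BMAL1 ratio was 0.755 and 0.291 in control, 1.37 to 2.02 at 20 and 30 Gy, and 0.292, 0.174 and 0.122 at 40 Gy. It was thus high in the low-dose libraries, with no overlap with the other groups. BMAL1 to CLOCK, the ratio of the activators, stayed between 1.91 and 3.03 in all 11 libraries.

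Set beside the order known from rodent liver, in which BMAL1 is high when NR1D1 is low, the values were as follows. At 20 and 30 Gy NR1D1 was lower than in control, while BMAL1 differed from control by a log2 change of 0.04 at 20 Gy and -0.08 at 30 Gy, the latter turning positive when libraries were rescaled to equal totals. NPAS2 differed by 0.13 and 0.12. DBP, which crests close to NR1D1, had log2 changes of 0.45 at 20 Gy and -0.32 at 30 Gy, and PER2, which crests after both, rose. At 40 Gy NR1D1, PER2, DBP and BMAL1 all had negative log2 changes, of which those of NR1D1 and PER2 passed. PER1, CRY1 and CRY2, and in 40Gy-2 and 40Gy-3 also NR1D2 and CIART, had positive ones. Of the members, only PER2 and NR1D1 were called at 20 and 30 Gy, in opposite directions, and neither BMAL1 nor NPAS2 was called there. An hour of sampling is not in the labels, so a different time of day and an effect of dose cannot be told apart from 1 time point per group.

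**Figure D4:**
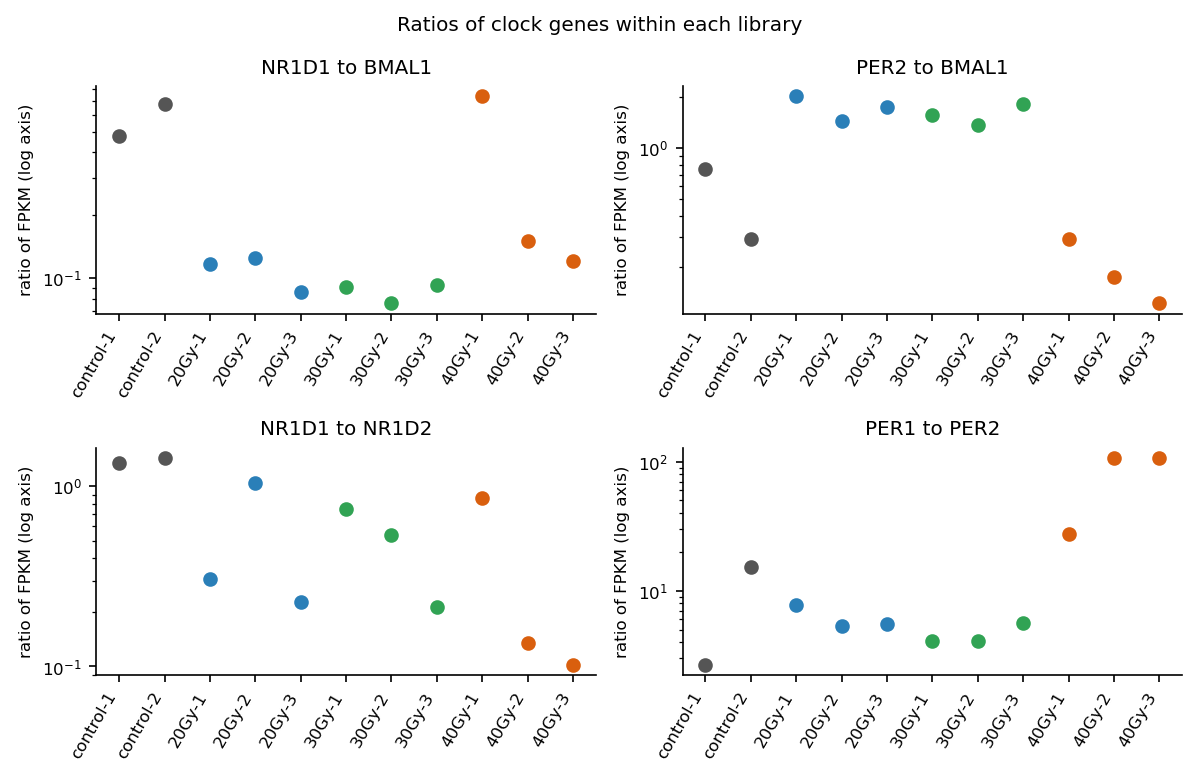
Ratio of FPKM between 2 clock genes in each of the 11 libraries on a log axis, coloured by group, for 4 pairs of genes. The ratio of PER1 to PER2 is 27.5 to 107 at 40 Gy and at most 15.3 elsewhere, and the ratio of PER2 to BMAL1 is highest in the low-dose libraries, at 1.37 to 2.02.

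The members varied within the low doses along the 2 sets of libraries described above. PER1, PER2, CRY2, NR1D2 and DBP were higher in all of 20Gy-1, 20Gy-3 and 30Gy-3 than in all of 20Gy-2, 30Gy-1 and 30Gy-2, and CRY1 was lower. Of all genes tested, 22.3% were higher and 30.1% lower in this way (52.4% in all). Among the members 5 of 9 were higher and 1 of 9 lower, and among the other clock genes 9 of 20 were higher and 2 of 20 lower. The sets came from the data, cut across the dose labels and include near-identical libraries, so no test was made. CLOCK, NR1D1 and CIART overlapped between the sets.

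The wider list held 26 other clock genes, of which 21 were in the table and 20 were tested. In the irradiated mean RORA was called higher and TIMELESS lower. RORA alone was called at 20 Gy and at 30 Gy. At 40 Gy CSNK1E was called higher and TIMELESS lower. Against the lower doses, CSNK1E and NONO were called higher and TIMELESS and RORA lower. Of the 20 tested, these were 2 higher and 2 lower, where 11.8% of all genes tested were called higher and 9.71% lower. The share of all genes called was 4.71% in the irradiated mean, 4.23% at 20 Gy, 3.03% at 30 Gy and 7.39% at 40 Gy. The 16 others passed in none of these comparisons with all libraries, including the E-box repressors BHLHE40 and BHLHE41 and the kinase CSNK1D. Besides TEF, 3 of them passed without 40Gy-1: the kinase subunit PRKAA1 at 40 Gy (0.0128) and against the lower doses (0.00419), the F-box protein FBXW11 at 40 Gy (0.0387), and CSNK1D against the lower doses (0.0374), all higher. BHLHE40 passed against the lower doses without 30Gy-3 (0.0217) and when the pair 20Gy-3 with 30Gy-3 was dropped (0.0417). BHLHE40 was at 8.94 and 10.5 FPKM in control and at 16.9, 23.9 and 19.0 FPKM at 40 Gy, with a log2 change of 0.95 (limma adjusted p = 0.156). BHLHE41 was near or below 1 FPKM in both controls and had a log2 change of 0.22 in the irradiated mean (limma adjusted p = 0.650).

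CSNK1E encodes a casein kinase that marks PER proteins for degradation. It was at 2.32 and 4.47 FPKM in control, at 2.55 to 5.65 FPKM at 20 and 30 Gy, and at 7.05, 18.3 and 11.03 FPKM at 40 Gy, above every other library. It rose by 1.53 on the log2 scale at 40 Gy against control (SE 0.377, limma adjusted p = 0.0384) and by 1.42 against the lower doses (SE 0.292, limma adjusted p = 0.00897). The first was lost in 13 of 24 alternatives, 8 of which leave out 1 library, with an adjusted p up to 0.247 without control-1. It was 0.0604 when the pair 20Gy-3 with 30Gy-3 was dropped and when 30Gy-1 and 30Gy-2 were averaged. The second was lost without 40Gy-2, at 0.0503. It was also lost when 30Gy-1 and 30Gy-2 were averaged and the pair 20Gy-3 with 30Gy-3 was dropped (log2 change 1.31). PER2 was lowest in the same 3 libraries.

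TIMELESS encodes a replication fork protein that binds PER and CRY proteins. It was at 44.1 and 34.7 FPKM in control, at 15.5, 15.5 and 27.1 FPKM at 20 Gy, at 24.5, 25.9 and 26.3 FPKM at 30 Gy, and at 9.36, 8.50 and 15.5 FPKM at 40 Gy. It was lower in all irradiated libraries than in control. The log2 change was -1.13 in the irradiated mean (SE 0.254, limma adjusted p = 0.0336), -1.77 at 40 Gy (SE 0.296, limma adjusted p = 0.00796) and -0.96 against the lower doses (SE 0.229, limma adjusted p = 0.0168). The call for the irradiated mean was lost in 12 of 23 alternatives, with an adjusted p of 0.274 without control-1, 0.153 without control-2 and up to 0.0690 without 1 of 6 irradiated libraries, and 0.0668 when 30Gy-1 and 30Gy-2 were averaged. Against the lower doses it was 0.0935 without 40Gy-2 and 0.0516 when the pair 20Gy-3 with 30Gy-3 was dropped. At 20 Gy TIMELESS passed without 20Gy-3 (0.0483) and without 40Gy-1 (0.0474). With only the control and 40 Gy libraries fitted, its limma adjusted p at 40 Gy was 0.109. The 40 Gy call was lost without control-1, at 0.0769.

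NONO, an RNA-binding protein found in PER complexes, was at 40.5 and 40.7 FPKM in control, 34.2 to 43.3 FPKM at 20 and 30 Gy, and 48.4, 83.6 and 76.5 FPKM at 40 Gy. It was higher at 40 Gy than at the lower doses by 0.79 on the log2 scale (SE 0.184, limma adjusted p = 0.0155). The call was lost without 40Gy-2 (0.0870), without 40Gy-3 (0.0703) and when the pair 20Gy-3 with 30Gy-3 was dropped (0.0679). Against control it had a log2 change of 0.72 (limma adjusted p = 0.0939), which passed without 40Gy-1 at 0.00405.

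Genes that the liver clock is known to drive were listed next, with 19 listed, 16 in the table and 15 tested. Over all genes tested, 1.86% were called higher and 2.84% lower in the irradiated mean. In the irradiated mean none was called higher and 3 were called lower: RGS16, a regulator of G protein signalling with a fasting-linked rhythm, KLF10, a glucose-responsive factor under CLOCK and BMAL1, and INSIG2, a brake on sterol synthesis whose rhythm depends on REV-ERB. RGS16 was at 25.8 and 17.05 FPKM in control and at 2.37 to 4.76 FPKM in the 9 irradiated libraries. It fell by 2.22 on the log2 scale (SE 0.224, limma adjusted p = 9.50e-04) and was called in all 23 alternatives. KLF10 was at 12.9 and 21.7 FPKM in control and 3.75 to 8.47 FPKM after irradiation, and fell by 1.38 (SE 0.203, limma adjusted p = 0.00491; 0.0871 without control-2). INSIG2 was at 21.0 and 16.3 FPKM in control and 6.36 to 14.7 FPKM after irradiation, and fell by 1.03 (SE 0.207, limma adjusted p = 0.0216; 0.217 without control-1 and 0.0960 without control-2).

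The same 3 outputs were called lower at 20 Gy and at 30 Gy, INSIG2 at 30 Gy in only 7 of 24 alternatives. Of all genes tested, 2.20% were called lower at 20 Gy and 1.71% at 30 Gy. The shares were 2.99% higher and 4.41% lower at 40 Gy, and 11.8% higher and 9.71% lower against the lower doses. At 40 Gy, RGS16, KLF10 and CYP2A19 were called lower and NAMPT, the rate-limiting enzyme of NAD salvage, higher. The RGS16 call was lost when only the control and 40 Gy libraries were fitted (limma adjusted p = 0.0688). KLF10 had a log2 change of -0.97 at 40 Gy with all libraries (limma adjusted p = 0.0378). This call was lost in 13 of 24 alternatives, among them those without control-2 (0.242), 40Gy-2 (0.102) or 40Gy-3 (0.0835). KLF10 was also called higher at 40 Gy than at the lower doses, with a log2 change of 0.62 (SE 0.184, limma adjusted p = 0.0391), which was lost in 15 of 24 alternatives. NAMPT was at 12.4 and 8.46 FPKM in control and at 16.6, 41.7 and 36.8 FPKM at 40 Gy (log2 change 1.44, limma adjusted p = 0.0418). CYP2A19, a cytochrome P450, was at 120 and 107 FPKM in control and 3.78 to 4.03 FPKM at 40 Gy, and its adjusted p rose to 0.194 without control-1. Its low level was not particular to 40 Gy. It was at 4.05, 4.49 and 4.11 FPKM in 20Gy-1, 20Gy-3 and 30Gy-3, and at 52.9 to 58.4 FPKM in 20Gy-2, 30Gy-1 and 30Gy-2. The NAMPT call was lost in 14 of 24 alternatives, among them those without control-1 (0.114), control-2 (0.229), 40Gy-2 (0.132) or 40Gy-3 (0.102). CYP7A1, the rate-limiting enzyme of bile acid synthesis, was at 36.6 to 89.5 FPKM at 20 and 30 Gy and at 54.5, 0.778 and 0.631 FPKM at 40 Gy. Its difference between 40 Gy and the lower doses was a log2 change of -3.44 (limma adjusted p = 0.0405), with 40Gy-1 among the low-dose values. It was lost in 11 of 24 alternatives, at 0.187 without 40Gy-2, 0.168 without 40Gy-3 and up to 0.0794 without single low-dose libraries.

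Signals that reset the liver clock were examined through genes that respond to them. Of all genes tested, 4.71% were called in the irradiated mean, 7.39% at 40 Gy and 21.5% against the lower doses. Of 11 glucocorticoid-responsive genes, none was called higher in any comparison with all libraries, and HSD11B1, which regenerates cortisol in liver, was called lower in the irradiated mean (log2 change -0.82, limma adjusted p = 0.0357), at 40 Gy (-1.19, limma adjusted p = 0.0121) and against the lower doses (-0.55, limma adjusted p = 0.0448). The 40 Gy call was lost without control-1 (0.0857) or control-2 (0.0523), and that against the lower doses in 17 of 24 alternatives, with each of the 11 libraries left out among them (0.0529 to 0.119). The call in the irradiated mean was lost in 14 alternatives, among them those without control-1 (0.240) or control-2 (0.165) and 7 of the 9 that leave out 1 irradiated library. Without 40Gy-1, FKBP5, which encodes a chaperone of the glucocorticoid receptor, was called higher in the irradiated mean (0.00231), at 20 Gy (0.0149), 30 Gy (0.0210) and 40 Gy (6.34e-04) and against the lower doses (0.00373). Without that library TAT and KLF9 were called higher at 40 Gy (0.0265 and 0.0211) and against the lower doses (0.0222 and 0.00795), and CEBPD against the lower doses (0.0486). Of 10 feeding and fasting genes, FASN and SREBF1, which drive fatty acid synthesis in the fed state, were called higher and CPT1A, which admits fatty acids to mitochondria in fasting, lower in the irradiated mean. FASN was at 19.7 and 22.2 FPKM in control, 530 to 924 FPKM at 20 and 30 Gy and 77.5, 119 and 81.05 FPKM at 40 Gy. Its log2 change was 4.005 in the irradiated mean (SE 0.212, limma adjusted p = 1.07e-05) and -2.91 for 40 Gy against the lower doses (SE 0.192, limma adjusted p = 4.41e-05), both called in every alternative.

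CPT1A was at 50.4 and 109 FPKM in control and at 21.4 to 32.0 FPKM after irradiation (log2 change -1.61, limma adjusted p = 0.00531; 0.0544 without control-2). FASN and PER2 were both highest at the lower doses, while at 40 Gy FASN was above control and PER2 below it. SREBF1 was at 25.3 and 24.5 FPKM in control and at 44.2 to 82.9 FPKM after irradiation (log2 change 1.17, limma adjusted p = 0.0191). Without control-1 its adjusted p was 0.135 and without control-2 it was 0.165. None of the 6 heat shock and temperature genes tested was called by limma in any comparison with all libraries, and 2 had an unadjusted p under 0.05 at 20 Gy. Without 40Gy-1, RBM3, a cold-induced RNA-binding protein, was called higher in the irradiated mean (0.0177), at 40 Gy (7.18e-04) and against the lower doses (2.89e-04). In the same alternative HSP70.2 was called lower at 40 Gy (0.0398) and against the lower doses (0.00469), and HSPD1 was called higher against the lower doses (0.0472). Of 7 immediate early genes, IER2 was called higher at 40 Gy than at the lower doses (log2 change 0.76, limma adjusted p = 0.00989; 0.0579 without 40Gy-2), and none was called against control. Without 40Gy-1, EGR1 (0.00328), JUNB (0.0456) and IER2 (0.0408) were called higher at 40 Gy against control, and EGR1 (0.0240) in the irradiated mean. The part of feeding state in the clock values was not tested.

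The genes with a pattern most like that of PER2 were found by Pearson's r of log2(FPKM + 1) over the 11 libraries, among 5830 genes with a symbol and a mean of at least 5 FPKM. These r are descriptions over libraries that share groups and near-identical pairs, and they carry no test. CBR2, a carbonyl reductase, had r = 0.990, and 0.989 over the 9 libraries left when near-identical pairs were averaged. It was at 582 and 99.9 FPKM in control, 1362 to 4690 FPKM at 20 and 30 Gy and 14.8 to 53.9 FPKM at 40 Gy. CYP2U1 (r = 0.983), PWWP3B (0.977), ACSM5 (0.976) and LSS (0.975), the lanosterol synthase of cholesterol synthesis, came next. The most opposite patterns were those of PIGK (-0.974), GALNT2 (-0.973), SULT1A3 (-0.970), EFL1 (-0.968) and PIGA (-0.967). SULT1A3 was at 34.0 and 41.3 FPKM in control, 0.424 to 3.06 FPKM at 20 and 30 Gy and 78.0 to 214 FPKM at 40 Gy, and its reads may be shared with near-identical sulfotransferase copies. No clock gene was among these 10.

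**Figure D5:**
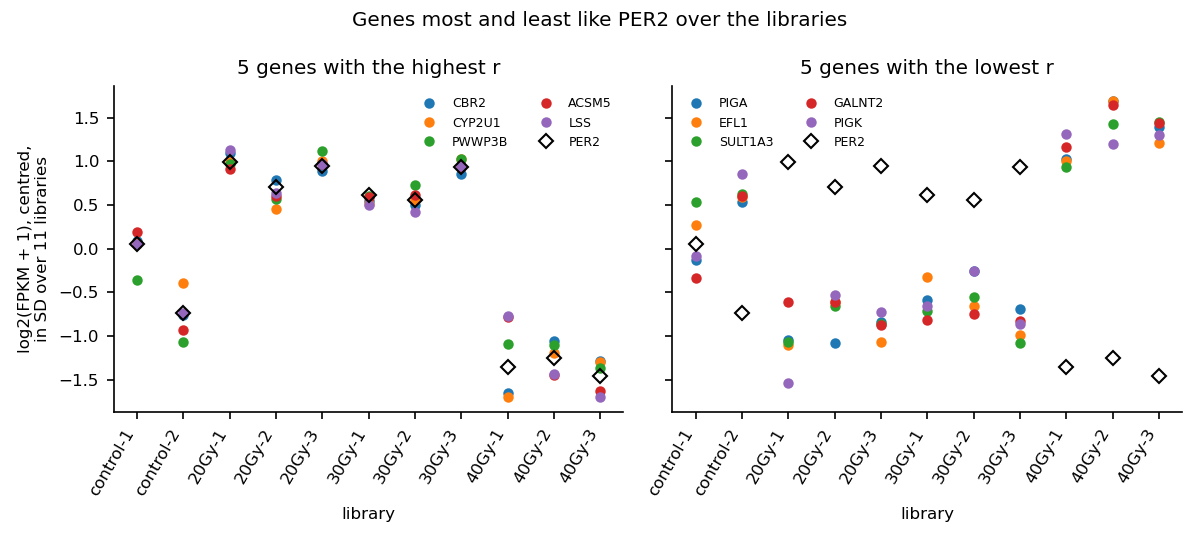
Level in each library as log2(FPKM + 1), centred and in SD over the 11 libraries, for PER2 (open diamonds) and the 5 genes with the highest (left) or lowest (right) Pearson's r to it. The genes on the left are highest at 20 and 30 Gy, as PER2 is, and those on the right are lowest there.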

How the data were processed

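The authors deposited 1 table of FPKM for 12505 genes in 11 columns named for the libraries; all 11 were mapped and 0 were left unmapped. HISAT2, Cufflinks, HTSeq and the builds Sscrofa11.1 and mm10 come from the submitters' processing notes, which give no roles. Depth is unknown: a search of low values found no whole-read step shared by all genes, so no counting intervals are given. Libraries summed to 520839 to 949840 FPKM, per the deposited values.

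Symbols (10561 of 12505 IDs) and Sscrofa11.1 coordinates came from gene tables. Values were tested as log2(FPKM + 1) of the authors' FPKM in limma 3.58.1 (R 4.3.3), with 4 group means, trended eBayes and two-sided tests on 7 residual degrees of freedom. The fit was checked on simulated data. Alternatives changed the pseudocount, filter, scaling, model and libraries. The members and lists were chosen with earlier results of these data known. All members were named, with partners (1 is not reported here), called genes and the 5 genes most and least like PER2. The genes overlapping members, and the sets of low-dose libraries, were chosen after seeing the values.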

Additional observations from a re-analysis of the deposited data

Results flagged for a closer look

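For 6 clock genes the level differed between dose groups, by the test of 40 Gy against the mean of 20 and 30 Gy (limma, adjusted p under 0.05). They were 2 of the 9 members tested, both lower, and of the 20 other clock genes tested 2 higher and 2 lower. The log2 differences were -2.97 for PER2, -0.81 for DBP, -0.82 for RORA, 1.42 for CSNK1E, -0.96 for TIMELESS and 0.79 for NONO. For PER2 the changes against control had opposite signs, 1.70 at 20 Gy and 1.45 at 30 Gy against -1.40 at 40 Gy. In this comparison 21.5% of all genes tested were called, a share near that of the clock genes.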

How the results depend on the processing

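PER2 and NR1D1 kept the direction of each of their calls in every alternative in which they were tested, and so did DBP. The number of members called (1 in the irradiated mean, 2 in each other comparison) changed as follows. A minimum of 5 FPKM, which removes NR1D1, gave 0 in the irradiated mean and 1 at 20, 30 and 40 Gy and for any difference. Rescaling to equal totals, which moved the median of all genes to 0.133 in the irradiated mean, gave 0 there, 1 at 20 Gy, 0 at 30 and 40 Gy, and 1 for 40 Gy against the lower doses and for any difference. Fitting only the groups compared gave 1 at 30 Gy and 0 at 40 Gy. Leaving out 20Gy-3 and 30Gy-3 gave 0 at 20 Gy and 1 at 30 Gy, and against the lower doses NR1D2 took the place of DBP. Averaging 30Gy-1 and 30Gy-2 gave 1 at 30 Gy, and both together gave 0 in the irradiated mean and at each dose, and 1 for the other comparisons. Leaving out 1 library at a time gave 0 to 3 in the irradiated mean, 0 to 4 at 20 Gy, 0 to 3 at 30 Gy, 0 to 6 at 40 Gy, 1 to 4 against the lower doses and 1 to 6 for any difference; each highest count came without 40Gy-1. Replicate numbers did not pair the libraries (r of deviations between libraries of the same number from -0.616 to 0.645), and a replicate block gave 1 member at 30 Gy in place of 2, 3 against the lower doses in place of 2 (NR1D2 was added), and the same number elsewhere.

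Of 9584 values for single genes of the lists, 9147 kept their direction and side of the threshold, 324 lost a call, 112 gained one and 1 reversed: FKBP5 for 40 Gy against the lower doses was -0.09 with all libraries, 1.094 without 40Gy-1 and -0.6889 without 40Gy-2. Over all genes, the counts called under alternatives without a library left out were 34 to 562 (548 in the irradiated mean), 56 to 525 (492 at 20 Gy), 8 to 486 (353 at 30 Gy), 31 to 917 (861 at 40 Gy), 201 to 2554 (2508 against the lower doses) and 95 to 1604 (1611 for any difference). With 1 library left out they were 99 to 1415, 132 to 1643, 87 to 1098, 237 to 2663, 851 to 4630 and 619 to 4175 in the same order. Without 40Gy-1, the source of each of these highest counts, 12.2% of all genes tested were called in the irradiated mean. The share was 14.1% at 20 Gy, 9.43% at 30 Gy, 22.9% at 40 Gy, 39.8% against the lower doses and 35.9% for any difference. The higher counts of members without that library stand beside these shares. With 2 control libraries and unknown depth, levels near 1 FPKM, as for NR1D1 after irradiation and PER2 at 40 Gy, are the least certain. The causes of these shifts were not tested, apart from the genes and libraries each alternative removes.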

Other observations

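PER1, a direct target of the glucocorticoid receptor, was high in the same libraries as several glucocorticoid-responsive and fasting genes, which were picked for naming after their values had been seen. SGK1, a kinase induced by glucocorticoids, was at 25.7 and 22.1 FPKM in control, at 190, 218 and 223 FPKM in 20Gy-1, 20Gy-3 and 30Gy-3, and at 36.6 to 39.4 FPKM in 20Gy-2, 30Gy-1 and 30Gy-2. At 40 Gy it was at 39.9, 163 and 180 FPKM. TAT, a tyrosine-degrading enzyme of the fasted liver, was at 261 and 302 FPKM in control, 909 to 1033 FPKM in the first of these sets, 212 to 243 FPKM in the second, and 171, 2427 and 2026 FPKM at 40 Gy. IGFBP1, which rises when insulin is low, was at 220 and 72.4 FPKM in control, 706 to 781 FPKM in the first set, 32.9 to 38.5 FPKM in the second, and 103, 1074 and 946 FPKM at 40 Gy. PER1 was at 103 to 153 FPKM in the first set and in 40Gy-2 and 40Gy-3, and at 50.9 to 77.4 FPKM in the second. PER2 did not follow these genes at 40 Gy, where it was at most 1.40 FPKM. Other glucocorticoid-responsive genes did not share this split. ERRFI1 was at 43.1 to 96.8 FPKM in the first set and 50.9 to 159 FPKM in the second. CEBPD was at 52.6 to 58.7 and 55.5 to 74.6 FPKM, and PDK4, NR3C1 and HSD11B1 overlapped. Of all genes tested, 22.3% were higher in the first set without overlap and 30.1% lower. None of SGK1, TAT and IGFBP1 passed in the irradiated mean (limma adjusted p = 0.220, 0.584 and 0.772). The part of hormonal or feeding state in the PER1 values was not tested.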
